A study of Mus musculus with 3 samples.

Results

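Pdzd2, C2cd2l, Trerf1, Tmem131, Ildr1, Car13, Hspa2, Parp8 and Ly6k are 9 of the 32285 genes measured in mouse spleen B cells that either lacked or kept lactate dehydrogenase A (LDHA). They were listed because their summed counts were lower in LDHA-deficient B cells. Most were chosen by the genotype difference over all B cells, and Ly6k by that among B cells outside germinal centres. Those differences are given here as a description only. The questions asked of them were in which B cell state each gene was found, and whether its level differed by genotype within germinal centre (GC) cells and within other B cells.

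Spleen cells of 3 LDHA-deficient mice and 3 LDHA-sufficient mice carried 1 antibody hashtag per mouse and were captured together on 1 lane of a 10x 5′ single-cell kit. Before capture they were sorted for viability, for B cell markers and on GL7, a surface glycan of GC B cells. The strain, age and immunisation of the mice, and the cell type in which Ldha was deleted, are not given in the sources read here. The hashtag and heavy chain libraries bear a label of blood stem and progenitor cells, whereas the transcript library is labelled as pre-GC and GC B cells, and Cd79a, Cd79b, Ms4a1 and Pax5, which mark B cells, were detected in every B cell class below.

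Germinal centres are short-lived structures in spleen and lymph nodes where B cells divide quickly, mutate their antibody genes and often switch from IgM to IgG. LDHA turns pyruvate into lactate and regenerates the NAD+ that glycolysis consumes. A gene made mainly by GC B cells falls in a whole B cell sum when GC cells are fewer, even if each GC cell makes as much of it as before. In such a sum, fewer cells of a type and less RNA per cell cannot be told apart.

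After filtering, 1807 B cells were kept, 238 to 363 in each LDHA-deficient mouse and 286 to 327 in each LDHA-sufficient mouse. Their summed UMIs (unique molecule counts) ran between 1131694 and 1718311 in LDHA-deficient mice and between 1470539 and 2221690 in LDHA-sufficient mice. Clusters were named by fixed marker genes. The 148 GC B-like cells fell into 3 clusters in which 12 or 13 of 13 listed GC markers, Bcl6 and S1pr2 among them, stood above the other cells. GC B-like cells numbered 5, 5 and 2 in the LDHA-deficient mice (1.82%, 1.38% and 0.840% of B cells) and 56, 70 and 10 in the LDHA-sufficient mice (17.6%, 21.4% and 3.50%). LDHA-sufficient mouse 3 had few GC cells for its genotype, and the 2 genotypes did not overlap in GC share. These are shares of the sorted and captured cells, not of the spleen. The targeted gene matched the labels: Ldha stood at 54.5, 50.8 and 70.5 CPM (UMIs of the gene per 1000000 UMIs) in LDHA-deficient B cells and at 232, 239 and 168 CPM in LDHA-sufficient B cells.

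Over all B cells, which is the contrast that chose the genes, 8 of the 9 had lower levels in every LDHA-deficient mouse than in any LDHA-sufficient mouse, where 9.81% of the 9225 genes tested did so. edgeR's quasi-likelihood test called 7 of the 9 lower at an adjusted p under 0.05, against 0.770% of all genes. Because most of the genes were picked on this contrast, nothing is read from either count. The median log2 fold change (LDHA-deficient over LDHA-sufficient) was -1.94 for the 9 genes and 0.02 for all genes tested. Trerf1 had the largest fold difference, though not the largest in CPM, at 0.778, 0.605 and 3.48 CPM in LDHA-deficient mice and 24.9, 22.8 and 11.4 in LDHA-sufficient mice. Tmem131 had the smallest relative difference, at 127, 122 and 110 CPM in LDHA-deficient mice and 238, 271 and 146 in LDHA-sufficient mice. Ly6k was the gene whose genotypes overlapped, at 4.67, 10.3 and 14.8 CPM in LDHA-deficient mice and 41.3, 10.5 and 22.7 in LDHA-sufficient mice. In each of the other 8 genes the lowest LDHA-sufficient value belonged to mouse 3, the mouse with few GC cells.

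**Figure D1:**
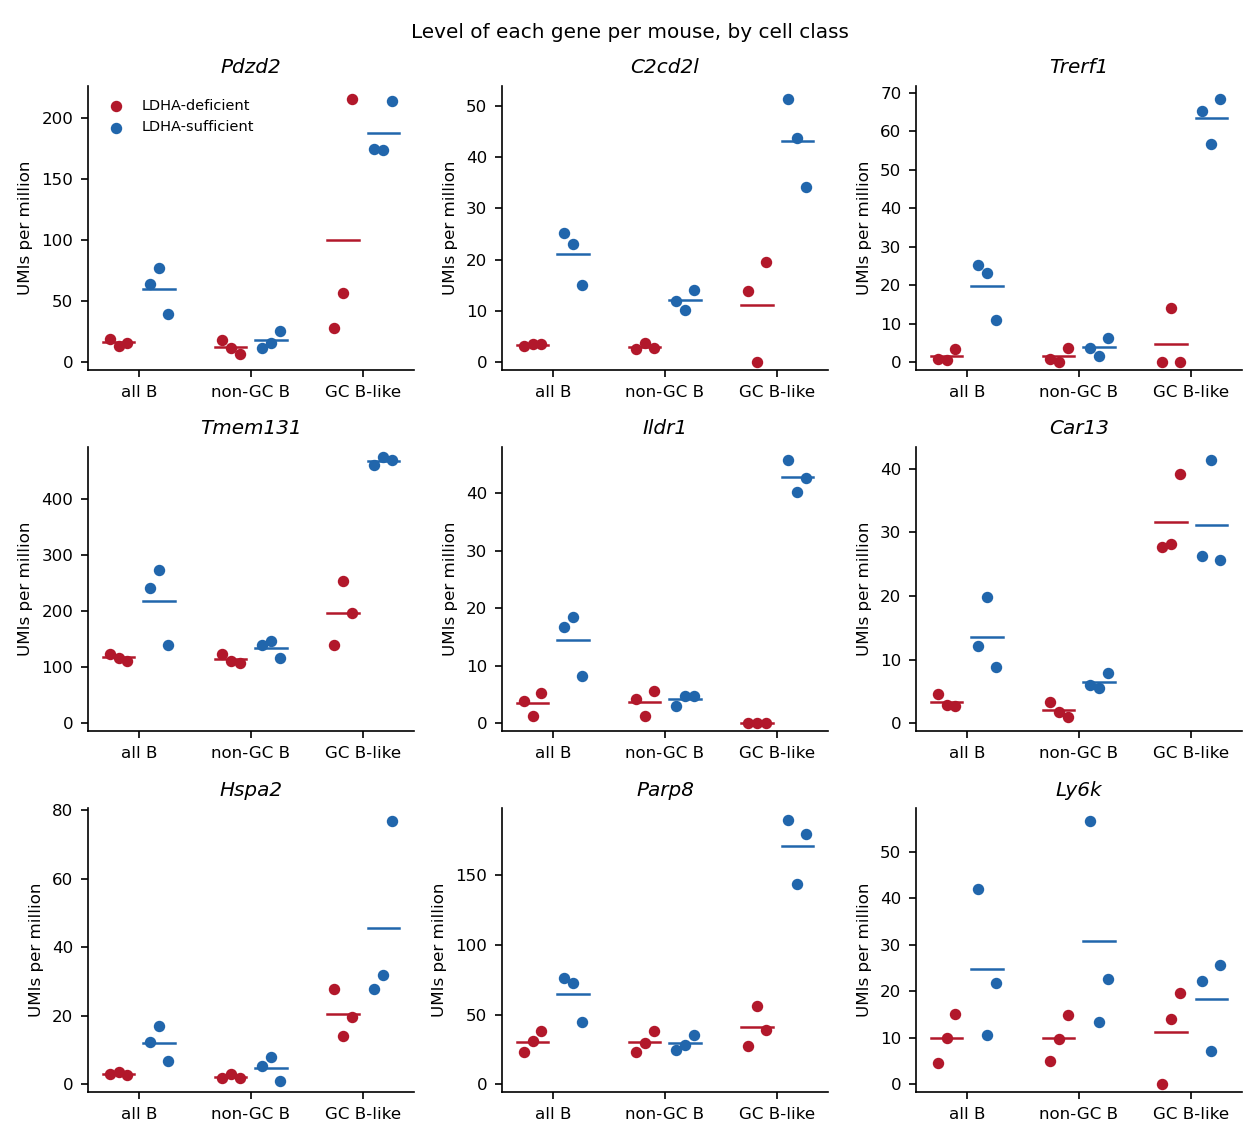
Level of each gene in CPM (vertical axis, unscaled) in each of the 3 LDHA-deficient mice (red) and 3 LDHA-sufficient mice (blue), over all B cells, non-GC B cells and GC B-like cells, with bars at the group mean. The gap between genotypes over all B cells narrows among non-GC cells for Pdzd2, Tmem131, Parp8 and Ildr1, while C2cd2l and Car13 have separate groups there. Of the genes tested there, which leave out Car13, 6.62% were lower without overlap. The GC points of LDHA-deficient mice rest on 5, 5 and 2 cells.

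Summed over the LDHA-sufficient mice, the GC B-like class held most of the molecules of 8 of the 9 genes. These cells made up 14.6% of LDHA-sufficient B cells and 28.7% of their UMIs, yet they held 84.4% of the Trerf1 UMIs, 81.2% of Pdzd2, 80.9% of Ildr1 and 75.7% of Hspa2. Parp8 followed with 71.1%, Car13 with 68.7%, C2cd2l with 60.9% and Tmem131 with 59.2%. Ly6k was the exception, with 16.9% of its UMIs in GC cells. These shares come mainly from mice 1 and 2, where the 8 genes had 62.2% to 96.0% of their UMIs in GC cells. In mouse 3, whose GC cells held 7.95% of B cell UMIs, the shares were 90.0% for Hspa2, 50.0% for Trerf1 and 18.2% to 43.1% for the other 6. In LDHA-deficient mice, where GC cells were 1.37% of B cells and 4.67% of UMIs, the same shares ran between 0% for Ildr1 and 42.9% for Car13.

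The GC cells were set against the non-GC B cells (all others but 19 plasma cell-like cells) of the same 3 LDHA-sufficient mice, with each mouse as a block. All 9 genes could be tested. Of these, 8 were higher in GC cells, in every mouse without overlap, where 17.2% of 8444 genes tested were called higher and 20.1% were higher without overlap. The choice of genes builds part of this in, since the LDHA-deficient sums held fewer GC cells and any gene of GC cells then falls in them. The filter on low counts adds to this. Trerf1, Ildr1, Car13 and Hspa2 passed it only through their GC sums, so their entry already favoured a higher level there. The median log2 fold change was 2.45 for the 9 genes and -0.03 for all genes tested.

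The nuclear gene of the list, Trerf1, is a zinc finger protein related to the MIDEAS subunit of histone deacetylase complexes. Trerf1 had 62.0, 56.4 and 66.1 CPM in GC cells and 3.93, 1.65 and 6.74 in non-GC cells of the 3 LDHA-sufficient mice. Its log2 fold change of 3.97 (SE 0.40, adjusted p = 8.97e-22) was the largest of the 9. It lies at chr17:47140875-47361958 on the plus strand (GRCm38, GENCODE), where the annotation gives it as a processed transcript and not as a coding gene. Outside GC cells Trerf1 was low in every B cell class, between 0 and 4.38 CPM apart from 12.7 in 19 plasma cell-like cells. The 42 myeloid cells that came through the sort had 32.9 CPM.

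Parp8 belongs to the family that attaches ADP-ribose to proteins, and transfers single units. Its gene lies at chr13:116854820-117025537 on the minus strand. It had 181, 143 and 173 CPM in GC cells and 25.9, 29.7 and 37.9 in non-GC cells. The difference was 2.45 on the log2 scale (SE 0.20, adjusted p = 4.96e-31). Non-GC classes other than plasma cells, where no Parp8 UMI was seen, lay between 20.7 and 37.1 CPM, so its level was even outside the GC.

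Hspa2 is an HSP70 chaperone best known from the testis, where sperm cells need it to complete meiosis. In GC cells it had 26.4, 31.7 and 74.3 CPM, against 5.50, 8.26 and 0.843 in non-GC cells. The highest GC value and the lowest non-GC value both came from LDHA-sufficient mouse 3, whose GC value rests on 9 UMIs in 10 cells. The log2 fold change was 2.75 (SE 0.44, adjusted p = 6.36e-09). The gene lies at chr12:76404176-76406938 on the plus strand. Its promoter is shown because, of the 6 promoters that the RefSeq table (GRCm38.p6) held for these genes, it was the only one with the octamer ATGCAAAT, the word read by the B cell factors OCT2 and OCA-B. The 30 bases printed are chr12:76404177-76404206 on the plus strand. In capitals is the reverse complement of the octamer, at bases 182 to 175 before the RefSeq start. The RefSeq start lies downstream of the GENCODE start, so the site falls within the GENCODE gene.
Hspa2 promoter site: ggcggggcttcATTTGCATaacggccgccc
The octamer, on either strand, was present in 1.60% of the 32851 RefSeq promoters when the 250 bases before the start were searched. A match describes the letters and is no evidence of binding.

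Car13 is a cytosolic carbonic anhydrase, an enzyme that interconverts carbon dioxide and bicarbonate. Its gene lies at chr3:14641727-14663002 on the plus strand. It had 25.1, 41.2 and 24.8 CPM in GC cells and 6.28, 5.78 and 8.43 in non-GC cells, a log2 fold change of 2.24 (SE 0.42, adjusted p = 7.01e-07). Both Car13 and Hspa2 were rare: Car13 gave 97 UMIs and Hspa2 87 UMIs over all B cells.

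C2cd2l, also called TMEM24, moves phosphatidylinositol between the endoplasmic reticulum and the plasma membrane. Its gene lies at chr9:44309237-44320285 on the minus strand. It had 48.8, 43.5 and 33.0 CPM in GC cells and 12.6, 10.7 and 15.2 in non-GC cells. The difference was 1.82 on the log2 scale (SE 0.34, adjusted p = 1.09e-06), and the groups did not overlap. The other membrane protein, Tmem131, is known for its part in collagen secretion, and its gene lies at chr1:36792191-36943666 on the minus strand. Tmem131 was the most abundant of the 9 and had 439, 473 and 454 CPM in GC cells and 147, 155 and 125 in non-GC cells (log2 fold change 1.66, SE 0.15, adjusted p = 1.23e-27). Counts here are not divided by gene length, so this order of abundance is one of counted molecules.

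Ildr1, or angulin-2, marks the corners where 3 epithelial cells meet. Ildr1 had 43.6, 40.0 and 41.3 CPM in GC cells and 3.14, 4.96 and 5.06 in non-GC cells, with a log2 fold change of 3.25 (SE 0.42, adjusted p = 4.67e-13). The GC values of the 3 mice lay close together and far above their non-GC values. The gene lies at chr16:36693978-36726804 on the plus strand. Its RefSeq promoter (GRCm38.p6, chr16:36693728-36693977, plus strand) is shown because it alone among the 6 held CACCTG, a word read by the B cell factor E2A. That word, in capitals, stands at bases 88 to 83 before the start.
Ildr1 promoter: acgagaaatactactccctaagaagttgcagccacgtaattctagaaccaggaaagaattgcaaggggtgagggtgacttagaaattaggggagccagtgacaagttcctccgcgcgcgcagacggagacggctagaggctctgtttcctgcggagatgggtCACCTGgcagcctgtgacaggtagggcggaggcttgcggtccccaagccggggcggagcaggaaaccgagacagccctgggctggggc
CACCTG or its reverse complement was found in 17.2% of all promoters searched. CCAAT was found in 3 of the 6 promoters, those of Trerf1, Tmem131 and Hspa2, and in 33.8% of all promoters. The RefSeq start used for Trerf1 falls at an internal exon of the GENCODE models, so its window may not be a promoter. The letters TTTGAA (16.0% of all promoters) and TTCNNNGAA (7.02%) were in none of the 6. Searches covered both strands.

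Pdzd2 is a large protein with several PDZ domains, which bind the tails of other proteins. It lies at chr15:12359711-12739924 on the minus strand. Pdzd2 had 166, 173 and 206 CPM in GC cells and 12.6, 16.5 and 27.8 in non-GC cells, a log2 fold change of 3.33 (SE 0.22, adjusted p = 2.37e-49). At least 1 UMI was seen in 74.3% of GC B-like cells, against 4.76% of myeloid cells. GC cells were deeper (median 9806 UMIs, against 2922 in myeloid cells). Thinned to 1500 UMIs per cell, the shares were 23.0% of GC cells and 0% of myeloid cells.

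Ly6k stood apart from the other 8. It is a small GPI-anchored protein of the Ly6 family, known in mice for its role in sperm migration. Ly6k had 21.1, 7.05 and 24.8 CPM in GC cells and 59.7, 14.0 and 24.4 in non-GC cells of LDHA-sufficient mice. The log2 fold change was -1.16 (SE 0.37, adjusted p = 0.00787), but the groups overlapped, and in mouse 3 the values were nearly equal. The call was lost without LDHA-sufficient mouse 1 (-0.63, adjusted p = 0.561), without mouse 2 (adjusted p = 0.0776) and by DESeq2 (adjusted p = 0.298). It was also lost when the replicating non-GC cluster was left out (-0.72, adjusted p = 0.149). Ly6k lies at chr15:74796874-74799986 on the minus strand and shares exon bases with Gm17189 on the opposite strand, and the sources do not say whether counting used strand, so reads of the 2 genes may be mixed.

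**Figure D2:**
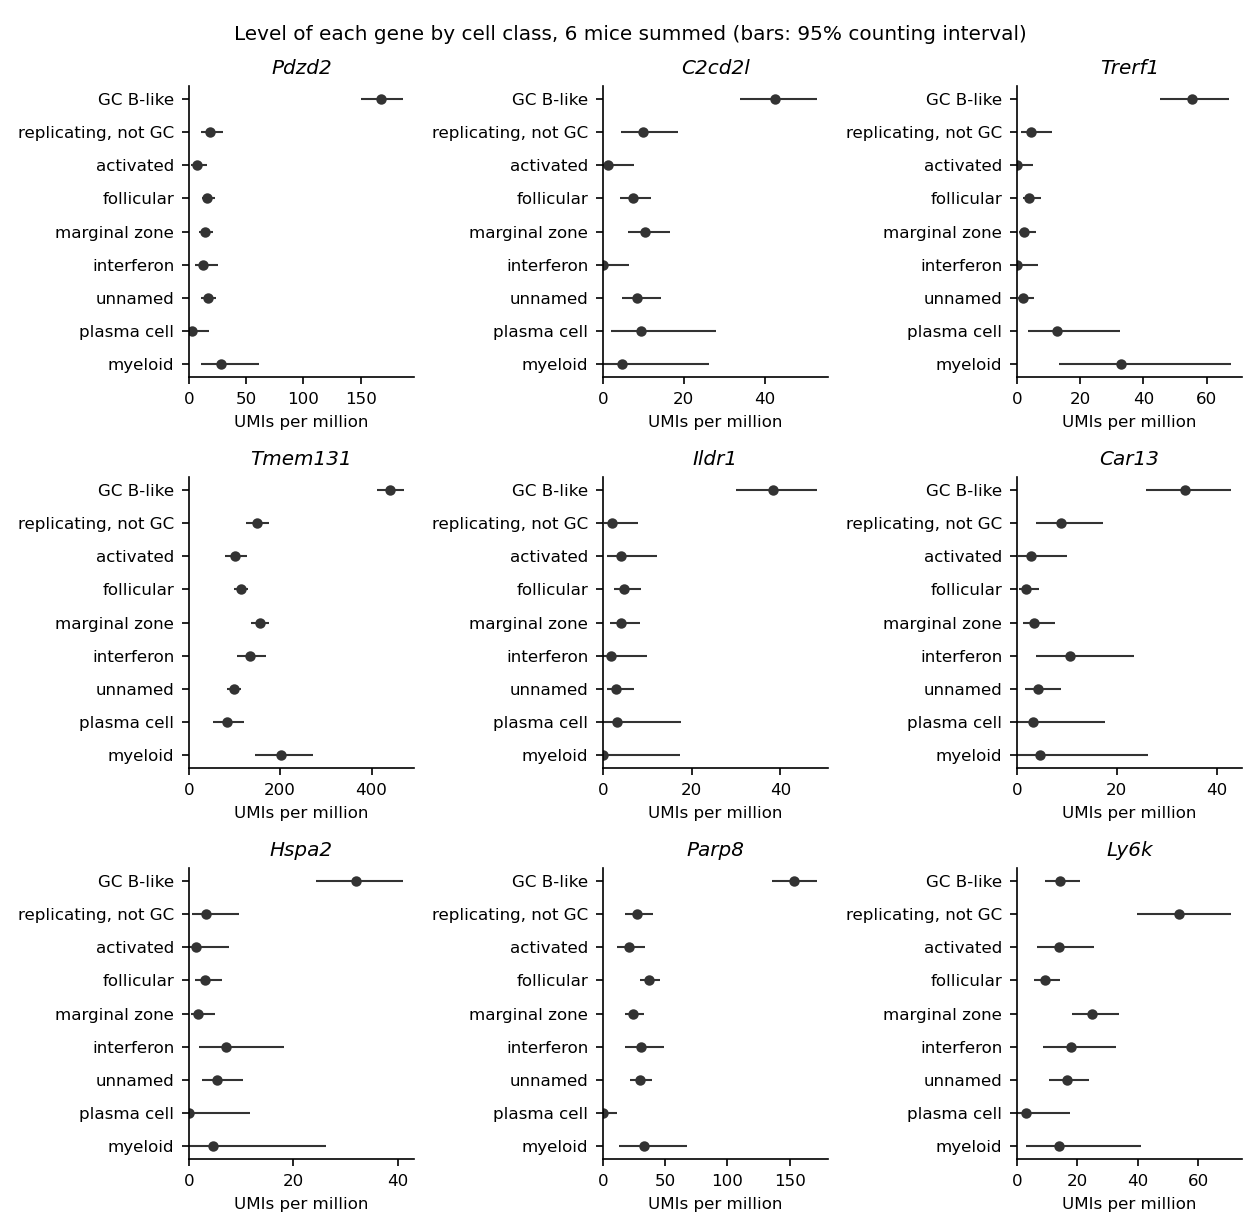
Level of each gene in CPM (horizontal axis) by cell class, 6 mice summed, with exact 95% Poisson intervals that cover counting error only. The GC B-like class has the highest level for 8 genes, and the replicating cells without GC markers have the highest for Ly6k, at 53.7 CPM.

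Dividing cells outside the GC class had lower summed levels of 8 of these genes than GC cells had. These were a cluster of 67 cells with division genes but without GC markers, called replicating here (median 11164 UMIs per cell). In it 3 listed marginal zone markers also stood above the other cells, so it may include dividing marginal zone B-like cells. Pdzd2 stood at 18.6 CPM in replicating cells, against 168 in GC cells, and Trerf1 at 4.38 against 55.4. Ildr1 stood at 2.19 against 38.3, and Hspa2 at 3.29 against 32.0. The gap was smaller, as a fold, for Tmem131, with 149 CPM in replicating cells and 441 in GC cells, and for Car13 (8.76 against 33.6), C2cd2l (9.86 against 42.6) and Parp8 (27.4 against 153). These levels sum all 6 mice and have no test. Ly6k was the reverse, with 53.7 CPM in replicating cells and 14.4 in GC cells.

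Within the GC class, the 3 clusters differed by phase of division: 33 cells led by S phase genes, 50 by mitotic genes and 65 with fewer of either. Tmem131 had 269 CPM in the S phase cluster, 501 in the mitotic cluster and 515 in the remaining one, and Pdzd2 had 93.5, 202 and 190. Parp8 was highest in the mitotic cluster, at 220 CPM, with 99.3 in the S phase cluster and 123 in the remaining one. C2cd2l was also highest there, at 64.0 CPM, against 26.7 in the S phase cluster and 31.5 in the remaining one. Clusters were drawn from the same cells, although without these 9 genes, so the differences are described and not tested. LDHA-deficient GC cells fell 5, 3 and 4 into the S phase, mitotic and remaining cluster, and LDHA-sufficient GC cells 28, 47 and 61.

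Among non-GC B cells, the genotype difference of most of these genes was small or could not be tested. Here and in the GC comparison below, the mice are those whose sums chose the genes, so the p-values are not independent support. Of the 9 genes, 5 passed the filter on low counts and 1, C2cd2l, was called lower, where 0.181% of 8835 genes were called lower. C2cd2l passed that filter only through its LDHA-sufficient mice, so its entry into the test already favoured a lower level. The median log2 fold change of the 5 was -0.54. C2cd2l was also the only one of the 5 to be lower in LDHA-deficient cells without overlap, as 6.62% of all genes were.

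C2cd2l had 2.52, 3.79 and 2.73 CPM in LDHA-deficient non-GC cells and 12.0, 10.2 and 14.4 in LDHA-sufficient ones. The means were 3.01 ± 0.678 and 12.2 ± 2.11 (SD, n = 3 each), every LDHA-sufficient mouse stood above every LDHA-deficient mouse, and the log2 fold change was -1.95 (SE 0.44, adjusted p = 0.0424). The call rests on 59 UMIs in 55 cells, with at most 2 UMIs in a cell. It was lost by DESeq2 (adjusted p = 0.712) and whenever any 1 of the 6 mice was left out (adjusted p between 0.0823 and 0.196), while the log2 fold change stayed between -2.18 and -1.82. Without the replicating cluster C2cd2l no longer passed the filter on low counts, and its levels were 2.68, 3.18 and 3.32 CPM in LDHA-deficient mice and 11.9, 7.52 and 15.6 in LDHA-sufficient mice.

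By class, the summed levels of C2cd2l rest on few UMIs and were not tested. It stood at 3.78 CPM (3 UMIs) in LDHA-deficient and 16.2 (15 UMIs) in LDHA-sufficient marginal zone B-like cells, and in follicular B-like cells at 4.89 (6 UMIs) in LDHA-deficient and 10.6 (11 UMIs) in LDHA-sufficient mice. In the unnamed class it stood at 2.37 (2 UMIs) in LDHA-deficient and 15.0 (12 UMIs) in LDHA-sufficient cells. That class pools 2 clusters, of 320 and 106 cells, where C2cd2l had 4.91 and 19.1 CPM over both genotypes. Its genotype values were not split by cluster. In each of these 3 classes the 95% counting intervals of the genotypes overlapped. In activated B-like and in interferon-responding cells there were too few UMIs to tell, with 1 and 0 in all.

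The other genes tested in non-GC cells were not called. Parp8 had 23.5, 30.9 and 37.4 CPM in LDHA-deficient and 24.8, 28.4 and 36.1 in LDHA-sufficient non-GC cells (log2 fold change 0.04, SE 0.21, adjusted p = 0.985), so its groups covered nearly the same range. Tmem131 had 124, 116 and 106 CPM in LDHA-deficient and 141, 148 and 119 in LDHA-sufficient cells (-0.24, SE 0.11, adjusted p = 0.709), with the lowest LDHA-sufficient mouse inside the LDHA-deficient range. Pdzd2 had 18.5, 12.0 and 6.38 CPM in LDHA-deficient and 12.0, 15.8 and 26.5 in LDHA-sufficient cells (-0.54, SE 0.34, adjusted p = 0.789), and these groups overlapped. The remaining 4 genes had 0 to 10 UMIs in any mouse. Trerf1 gave 1, 0 and 4 UMIs in LDHA-deficient and 5, 2 and 8 in LDHA-sufficient non-GC cells, and Ildr1 gave 5, 2 and 6 against 4, 6 and 6. Car13 gave 4, 3 and 1 UMIs in LDHA-deficient and 8, 7 and 10 in LDHA-sufficient non-GC cells, and Hspa2 gave 2, 5 and 2 against 7, 10 and 1. Of these 4, only Car13 did not overlap between genotypes, in counts or in CPM. The share of genes without overlap given above covers only genes that passed the filter. No share over all genes thus stands beside Car13, and nothing is read from it.

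Marker lists in these non-GC sums overlapped between genotypes and were not tested. The 20 genes of G2 and M phase summed to 560, 364 and 879 CPM in LDHA-deficient and 1008, 1084 and 747 in LDHA-sufficient non-GC cells. S phase genes summed to 611, 507 and 910 in LDHA-deficient and 839, 904 and 697 in LDHA-sufficient cells, and the 13 GC markers to 170, 204 and 180 against 199, 209 and 212. Red cell genes summed to 32.4, 34.6 and 170 CPM in LDHA-deficient mice, against 959, 20.3 and 3471 in LDHA-sufficient mice. Myeloid markers summed to 170, 114 and 90.3 in LDHA-deficient and 106, 137 and 256 in LDHA-sufficient cells, and T and NK cell markers to 24.1, 12.1 and 17.7 against 17.9, 76.6 and 50.0. The part of these lists in the result for C2cd2l was not tested.

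Ly6k was listed for its difference among non-GC cells, so its fit here is a description only. In this contrast Ly6k depended on a few cells. It had 5.04, 10.1 and 14.6 CPM in LDHA-deficient and 57.1, 13.4 and 23.3 in LDHA-sufficient non-GC cells (log2 fold change -1.67, SE 0.76, adjusted p = 0.754). LDHA-sufficient mouse 1 was far above the rest, and mouse 2 lay within the LDHA-deficient range. A single replicating cell of mouse 1, with 53499 UMIs in all, held 24 of the 188 Ly6k UMIs of all B cells (12.8%). Without that cell mouse 1 stood at 40.3 CPM, and the log2 fold change was -1.38 (adjusted p = 0.621). Without the whole replicating cluster it was -1.36 (adjusted p = 0.157).

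Marginal zone B-like cells held the next share of Ly6k. In them it stood at 8.81 CPM (95% interval 3.54 to 18.2) in LDHA-deficient and 38.9 (27.2 to 53.8) in LDHA-sufficient mice summed. By mouse, these were 1, 4 and 2 UMIs in LDHA-deficient and 22, 6 and 8 in LDHA-sufficient mice, so 1 mouse gave most of the sum. Such intervals cover counting error only, not the spread between mice.

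**Figure D3:**
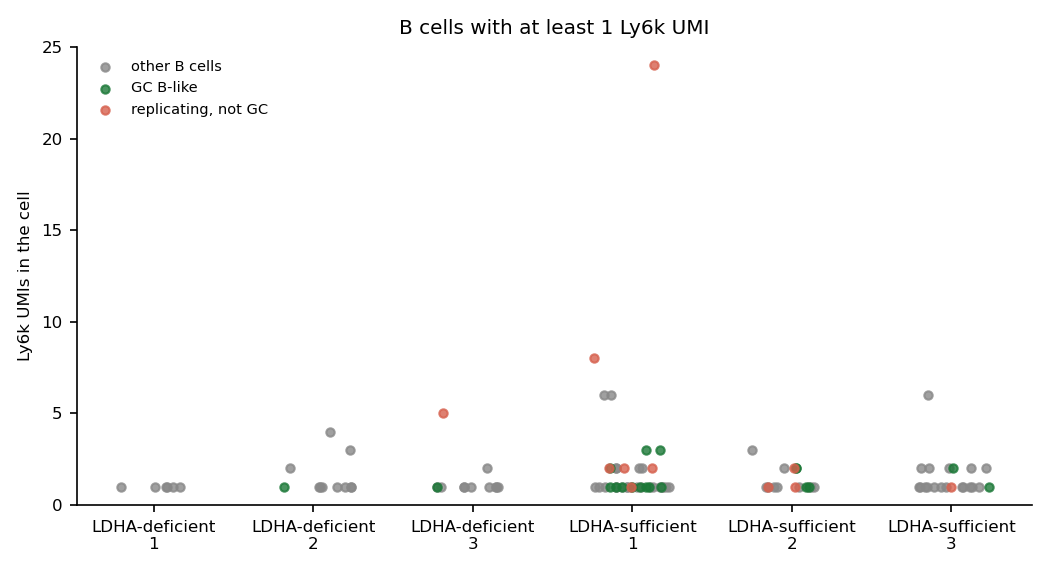
Ly6k UMIs per cell (vertical axis) in the 108 B cells with at least 1, by mouse, LDHA-deficient mice at left and LDHA-sufficient mice at right, coloured by class. Most cells have 1 or 2 UMIs, and 1 replicating cell of LDHA-sufficient mouse 1 has 24.

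Within GC B-like cells the LDHA-deficient side was thin. LDHA-deficient mouse 3, with 2 GC cells, was left out of the test. That left 2 LDHA-deficient mice with 5 cells each (mouse 1 had 3 at clustering resolution 0.4) against 3 LDHA-sufficient mice. No gene of the 2350 tested passed in this comparison by edgeR (0% called lower), although 316 had an unadjusted p under 0.05 and DESeq2 called 46. Pdzd2, Tmem131 and Parp8 could be tested, and each was lower in both LDHA-deficient mice than in any LDHA-sufficient mouse, as were 17.2% of all genes tested. Pdzd2 and Parp8 passed the filter on low counts only through LDHA-sufficient mice, so their entry into the test already favoured a lower level. Tmem131 met the filter in mice of both genotypes. The median log2 fold change of the 3 was -1.88, against -0.02 for all genes, and values are scaled within this comparison.

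Pdzd2 had 35.8 and 74.1 CPM in LDHA-deficient GC cells and 208, 210 and 263 in LDHA-sufficient ones (log2 fold change -1.99, SE 0.47, adjusted p = 0.138). The mouse left out went the other way: LDHA-deficient mouse 3 had 11 Pdzd2 UMIs in its 2 GC cells, or 216 CPM unscaled, against 175, 174 and 214 in the LDHA-sufficient mice. With it let in, the fold change was -0.89 (adjusted p = 0.581), and 9 of the 17 Pdzd2 UMIs of LDHA-deficient GC cells came from 1 cell. Tmem131 had 179 and 333 CPM in LDHA-deficient and 549, 573 and 579 in LDHA-sufficient GC cells (-1.15, SE 0.30, adjusted p = 0.149). Letting mouse 3 in left this at -1.13 (adjusted p = 0.244). Parp8 had 35.8 and 74.1 CPM in LDHA-deficient and 226, 174 and 221 in LDHA-sufficient GC cells (-1.88, SE 0.49, adjusted p = 0.149), and stood at -1.89 with mouse 3 (adjusted p = 0.194). All 3 missed the threshold, and all 3 passed it when no filter on low counts was used (adjusted p = 0.0105 for Pdzd2, 0.0126 for Tmem131 and 0.0200 for Parp8). They also passed when LDHA-deficient mouse 2 was left out (0.0213, 0.00984 and 0.0346), but that fit has a single LDHA-deficient mouse, assumed to vary like the LDHA-sufficient ones.

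The 12 LDHA-deficient GC cells held 194040 UMIs in all, so the rarer genes are given as summed levels with counting intervals. Ildr1 gave 0 of these UMIs, or 0 CPM (exact 95% interval 0 to 19.0, and 15.5 CPM at a floor of 3 counts), against 42.8 (33.5 to 53.9) in LDHA-sufficient GC cells. Trerf1 gave 1 UMI, or 5.15 CPM (0.130 to 28.7), against 61.2 (49.9 to 74.2). C2cd2l gave 2 UMIs, or 10.3 CPM (1.25 to 37.2), against 46.3 (36.6 to 57.8), and these intervals just overlapped. Car13 and Hspa2 lay nearer to the other genotype. Car13 had 2 UMIs in each LDHA-deficient mouse, or 30.9 CPM (11.3 to 67.3), against 33.9 (25.6 to 43.9) in LDHA-sufficient GC cells. Hspa2 had 2, 1 and 1 UMIs, or 20.6 CPM (5.62 to 52.8), against 33.3 (25.1 to 43.2). Ly6k had 2 UMIs, or 10.3 CPM, against 14.8. Differences of Car13, Hspa2 and Ly6k were thus not detectable at this depth.

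The LDHA-deficient GC-like cells were not uniform in their GC markers. The 13 markers summed to 652, 2452 and 1805 CPM in LDHA-deficient and 3058, 2815 and 2539 in LDHA-sufficient GC cells, so that LDHA-deficient mouse 1 was low. G2 and M phase genes summed to 4036, 4904 and 5630 in LDHA-deficient and 6142, 5219 and 6908 in LDHA-sufficient GC cells. The part of either list in the lower levels was not tested. At clustering resolution 0.4 LDHA-deficient mouse 1 had 3 GC cells with 20608 UMIs, against 5 cells with 72098 UMIs here. Mouse 1 then missed the minimum of 5 cells, so the part of class assignment in the lower levels was not tested either. Ldha itself was seen in 7 of the 12 LDHA-deficient GC cells, at 87.6 CPM, against 316 in LDHA-sufficient GC cells.

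Whether the genotype effect differed between GC and non-GC cells was tested as an interaction over 9335 genes, of which 0.803% were called in either direction. None of the 9 genes was called by edgeR. An unadjusted p under 0.05 was found for 4 of the 9 and for 855 of the 9335 genes. Ildr1, among the 4, gave 0 UMIs in LDHA-deficient GC cells (log2 difference -7.47, SE 3.56). Parp8 came nearest, with a log2 difference of -1.95 (SE 0.61, adjusted p = 0.104), followed by Tmem131 at -1.08 (SE 0.35, adjusted p = 0.128) and Pdzd2 at -1.99 (SE 0.65, adjusted p = 0.140). With all 6 mice let in Parp8 passed, at -2.21 (adjusted p = 0.0145), and Tmem131 passed in a fit without LDHA-deficient mouse 2, at -1.67 (adjusted p = 0.0176), which again rests on 1 LDHA-deficient mouse. For the other 6 genes the counts in LDHA-deficient GC cells were too few for a usable estimate.

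Heavy chain sequences, which the choice of genes did not use, gave a second view of B cell state. The cells were nevertheless part of the sums that chose most of the genes. LDHA-sufficient mice had more IgG cells, so the choice favours genes of IgG cells as it does genes of GC cells. The calls below are thus not independent support. IgG-switched B cells were set against B cells with IgM or IgD in the 3 LDHA-sufficient mice, since the LDHA-deficient mice had 1, 1 and 0 IgG cells. IgG cells numbered 14, 17 and 5, against 184, 189 and 186 IgM or IgD cells. Of the IgG cells, 78.6%, 88.2% and 20.0% were GC B-like, against 9.24%, 18.0% and 3.23% of the IgM or IgD cells, so the 2 views overlap. Of the 9 genes, 7 passed the filter and 3 were called higher in IgG cells, where 2.14% of 7091 genes were. The median log2 fold change of the 7 was 1.29, against -0.04 for all genes.

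Trerf1 had 50.4, 91.2 and 76.2 CPM in IgG cells and 21.0, 14.5 and 5.65 in IgM or IgD cells (log2 fold change 2.18, SE 0.47, adjusted p = 0.00143). Tmem131 had 426, 586 and 483 CPM in IgG and 211, 245 and 142 in IgM or IgD cells (1.30, SE 0.25, adjusted p = 2.15e-04). For both genes every IgG value was above every IgM or IgD value. Parp8 had 220, 161 and 25.4 CPM in IgG and 62.1, 71.6 and 51.9 in IgM or IgD cells (1.29, SE 0.32, adjusted p = 0.00651), and its groups overlapped because of mouse 3. All 3 calls were lost without mouse 2 (adjusted p = 0.436 for Trerf1, 0.157 for Tmem131 and 0.417 for Parp8). The call for Parp8 was also lost without mouse 1 (0.920) and by DESeq2 (0.538).

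The other 4 genes tested were not called. C2cd2l and Ildr1 were higher in IgG cells without overlap, as with Trerf1 and Tmem131 were 4 of the 7 genes and 7.08% of all genes tested, at 1.28 (SE 0.45, adjusted p = 0.0804) and 1.50 (SE 0.53, adjusted p = 0.0877) on the log2 scale. Pdzd2 differed by 0.95 (SE 0.37, adjusted p = 0.142), with 0 UMIs in the 5 IgG cells of mouse 3. Ly6k went the other way, with 18.3, 0 and 0 CPM in IgG and 56.2, 14.5 and 26.0 in IgM or IgD cells (-2.09, SE 0.73, adjusted p = 0.0824). When cells with mutated heavy chains (V gene identity to germline under 0.98) were set against unmutated ones, 1 of the 7 genes tested was called higher, Trerf1, where 0.552% of 7059 genes were. It had 59.9, 71.3 and 132 CPM in mutated and 12.0, 11.1 and 3.17 in unmutated cells (3.07, SE 0.57, adjusted p = 0.0168). Ildr1 (2.15, adjusted p = 0.0745) and Tmem131 (1.13, adjusted p = 0.0790) came next.

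**Figure D4:**
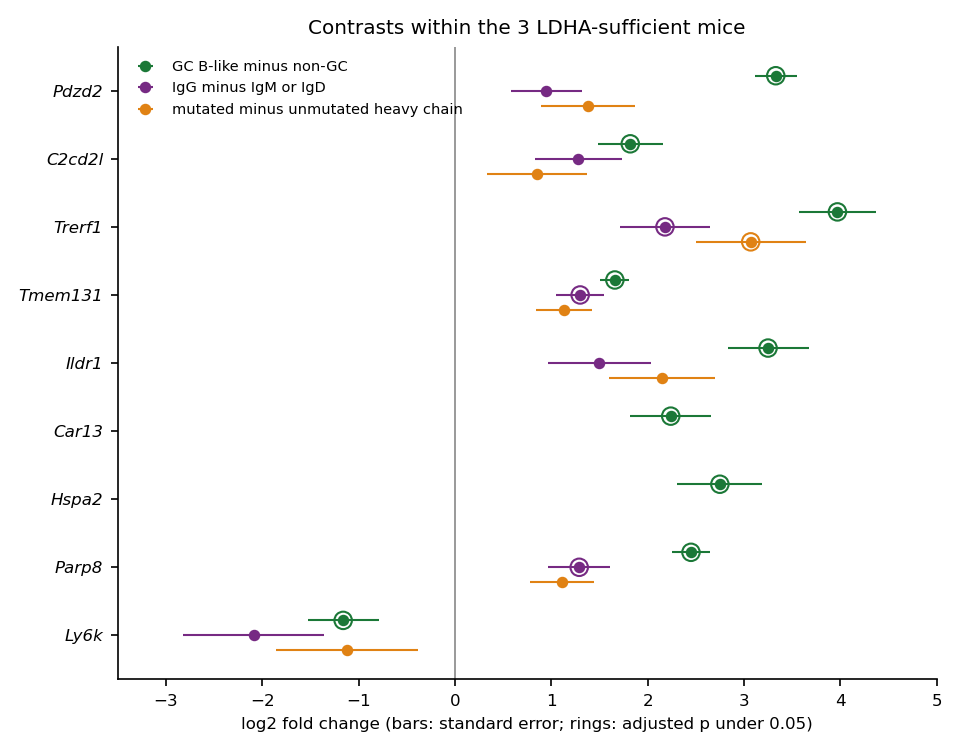
Log2 fold change of each gene (horizontal axis, bars show the standard error) in 3 contrasts within the LDHA-sufficient mice: GC B-like minus non-GC cells, IgG minus IgM or IgD cells, and mutated minus unmutated heavy chains. Rings mark an adjusted p under 0.05. All points lie right of 0 but those of Ly6k, and Trerf1 alone is ringed in all 3. Car13 and Hspa2 were too rare for the heavy chain contrasts.

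Barcodes that carried 2 hashtags of 1 genotype had been set aside as doublets, so their counts had no part in choosing the genes, although the mice are the same. There were 96 of LDHA-deficient pairs and 66 of LDHA-sufficient pairs, with 2.08% and 25.8% of them showing at least 5 GC markers. Levels of 8 of the 9 genes were lower in the LDHA-deficient pairs, as were 55.2% of the 9017 genes with at least 10 UMIs. For 7 of the 9 the counting intervals were also separate, as for 4.34% of those genes. Among them was Pdzd2 with 15.8 CPM (7.86 to 28.2), against 87.3 (64.4 to 116). Trerf1 had 4.30 (0.886 to 12.6), against 27.3 (15.3 to 45.0), and Parp8 had 37.2 (24.3 to 54.6), against 100 (75.4 to 130). By pair of mice, Parp8 had 54.5, 30.5 and 28.4 CPM in LDHA-deficient and 56.6, 75.0 and 187 in LDHA-sufficient barcodes, so that 1 pair, that of mice 1 and 3, gave much of the difference. For C2cd2l the intervals overlapped, at 11.5 (4.95 to 22.6) in LDHA-deficient and 30.9 (18.0 to 49.5) in LDHA-sufficient pairs. Ly6k had 8.59 (3.15 to 18.7), against 7.27 (1.98 to 18.6). In these barcodes the genotypes differed less in Ldha than in single-hashtag B cells. The barcodes were not sorted into cell classes, so myeloid cells were not removed as they were from the single-hashtag B cells. Ldha stood at 133 CPM in LDHA-deficient pairs, above the 56.5 of single-hashtag LDHA-deficient B cells. It stood at 178 in LDHA-sufficient pairs and 219 in single-hashtag LDHA-sufficient B cells. Among LDHA-deficient pairs, Ldha had 235 CPM for mice 1 and 2, 81.8 for mice 1 and 3 and 45.7 for mice 2 and 3. Thus 1 pair gave most of the excess. Single-hashtag LDHA-deficient myeloid cells had 174 CPM of Ldha (10 UMIs). Whether other cell types or cells of the other genotype lay behind the excess was not tested. The barcodes are 1 sum per genotype with no replicate and no test.

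**Figure D5:**
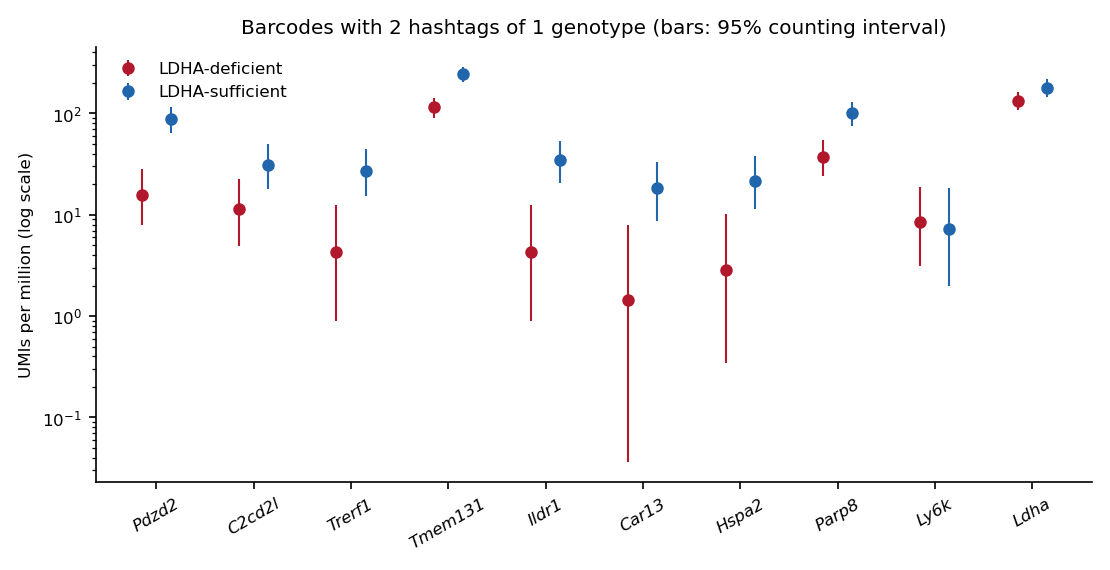
Level in CPM (vertical axis, log scale) in barcodes with 2 hashtags of LDHA-deficient mice (red) or of LDHA-sufficient mice (blue), with exact 95% Poisson intervals that cover counting error only. The intervals do not overlap for Pdzd2, Trerf1, Tmem131, Ildr1, Car13, Hspa2 and Parp8, overlap for C2cd2l and Ly6k, and overlap for Ldha itself.

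Relatives of the 9 genes were examined as 5 lists. None of the relatives tested (carbonic anhydrases, HSP70 chaperones, PARP enzymes, Ly6 proteins and paralogs or partners) was called between genotypes by edgeR, over all B cells or within non-GC or GC cells. Between GC and non-GC cells of LDHA-sufficient mice, 5 of 5 Ly6 family genes tested were called lower in GC cells, the direction of Ly6k, where 16.8% of all genes tested were called lower and 17.2% higher, with the largest differences for Ly6c2 (-3.94), Ly6d (-2.45), Lynx1 (-1.82) and Ly6a (-1.29). Of 12 PARP genes, 1 was called higher, Parp1 of DNA repair (0.37), and 4 lower, Parp6 (-1.49) and Tiparp (-1.20) the most. Of 9 HSP70 genes, 4 were called higher, such as Hspa14 (1.11) and Hsph1 (0.83), and 1 lower, Hspa5 of the endoplasmic reticulum (-0.42). Car2, the single other carbonic anhydrase tested, was lower (-2.25). Of 7 paralogs and partners, 2 were higher, Hdac1 (0.91) and Pdzd11 (0.89), and 1 lower.

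The genes whose levels most resembled each member were sought over 28 sums of mouse and cell class among 8160 genes, as a description, since the sums share a lane and classes differ in depth. Pdzd2 was most like Klhl6 (Pearson r = 0.779), a GC B cell gene, and Trerf1 like Cdca2 (0.794) and Pou2af1 (0.793), which encodes OCA-B. Parp8 was most like the division genes Cdc25b (0.838) and Mad2l1 (0.835), Ildr1 like Kif23 (0.729), and Tmem131 like Psmb9 (0.808) and Mki67 (0.802). A sum needed at least 20 cells. LDHA-sufficient mice 1 and 2 alone gave GC sums, and no sum of replicating cells entered. Likeness to division genes and to GC genes therefore cannot be told apart here. C2cd2l was most like Pafah1b3 (0.793) and Ly6k like Cpt1a (0.764). Car13 and Hspa2, with under 100 UMIs each, were not ranked.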

How the data were processed

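Gene expression was deposited by the authors as UMI counts per gene and barcode (2836 barcodes), and hashtags as deposited UMI counts for 2831 barcodes. Heavy chains were deposited with V identity as a fraction, per the file headers. The submitters' processing notes list Cell Ranger 6.0.0, Seurat 4.2.1 and mm10, while the file header gives Cell Ranger 6.0.2. The 9 genes and all lists were chosen with earlier results of these data known.

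Hashtags were called with HTODemux (Seurat 5.3.0, quantile 0.99): 1856 barcodes had 1 hashtag and 820 (29.0%) were doublets and removed, and about 167.2 same-mouse doublets (9.01%) are expected to remain. Cells with 500 genes, 1000 UMIs and under 10% mitochondrial UMIs were kept (1849). Leiden clustering (scanpy 1.11.5, resolution 0.8) left out the 9 genes, Ldha, antibody segments, mitochondrial, ribosomal and sex-linked genes, and GC clusters were split once more after 1 was seen to be mixed. Classes were named by at least 3 fixed markers and can differ from the study's. The replicating class is the exception: a part of a split GC cluster that was not GC B-like got that name. UMIs were summed per mouse and class and tested with edgeR 4.0.16 (quasi-likelihood, TMM, Benjamini-Hochberg over all genes tested). In simulated data this recovered most of the larger changes, but few for the interaction of genotype and class. The simulation gave all genes the same dispersion and no differences between mice or classes beyond the changes put in. It therefore does not give the power of the comparisons made here. DESeq2 1.42.0 was an alternative. Mice enter with 20 or more non-GC and 5 or more GC cells. Levels in CPM (UMIs per 1000000) are TMM-scaled within each comparison, and unscaled for classes summed over mice. Hashtag numbers name mice and pair none. Genes named beyond the 9 were the 2 most alike and at most 4 called relatives per comparison. GENCODE and RefSeq tables gave positions.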

Additional observations from a re-analysis of the deposited data

How the results depend on the processing

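Counts of genes called at an adjusted p under 0.05 moved with the processing, and the cause was not tested. DESeq2 changed them to 181 over all B cells (86 by edgeR), 5 in non-GC cells (19), 46 in GC cells (0), 1490 between GC and non-GC cells (2870), 84 between IgG and unswitched cells (413) and 7 for the interaction (75). Without a filter on low counts they were 648, 75 and 51 for the 3 genotype contrasts and 47 for the interaction. Hashtags called by ratio gave 280 over all B cells, 2 in GC cells and 13 for the interaction, and clustering at resolution 0.4 gave 12 in non-GC cells, 2 in GC cells and 20 for the interaction. Leaving out each mouse in turn gave 1 to 1376 over all B cells, 6 to 29 in non-GC cells, 0 to 165 in GC cells, 1532 to 3215 between GC and non-GC cells, 68 to 897 by IgG and 25 to 189 for the interaction. Mutated against unmutated chains gave 107. In alternatives added after seeing the data, non-GC cells gave 12 calls without the cell with the most Ly6k UMIs and 6 without the replicating cluster. Without the replicate block by mouse, the comparison of GC with non-GC cells gave 3091 calls and that of IgG 325; genotypes could not be paired, since hashtag numbers pair no mice.

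Leaving out a mouse turned the sign of 5 estimates, given as the range over such fits. Parp8 in non-GC cells (0.04) ran from -0.10 to 0.20, at -0.10 when LDHA-deficient mouse 3 was dropped and -0.08 when LDHA-sufficient mouse 1 was, and was -0.06 without the replicating cluster. In the interaction, Trerf1 (-0.27) ran from -6.68 to 2.64, Hspa2 (0.11) from -0.79 to 1.00, C2cd2l (-0.84) from -6.56 to 0.41 and Ly6k (0.93) from -3.95 to 1.51. Trerf1 was 2.64 and Hspa2 -0.79 when LDHA-deficient mouse 1 was dropped, C2cd2l 0.41 and Ly6k -3.95 when LDHA-deficient mouse 2 was, and Hspa2 -0.32 and -0.73 when LDHA-sufficient mice 1 and 2 were. Trerf1 also became 2.83 and Hspa2 -0.07 with hashtags by ratio, and 3.38 and -0.62 at resolution 0.4. The interaction estimates rest on 0 to 2 UMIs in an LDHA-deficient mouse's GC cells. Between GC and non-GC cells no gene changed direction, and Ly6k alone lost its call. Over all B cells, 27 of 94 alternative values lost the call and none changed sign. DESeq2 gave no adjusted p for 4, 3 and 6 of the 9 genes over all B cells, in GC cells and in the interaction. The GC genotype contrast rests on 12 LDHA-deficient cells. Leaving out either of its 2 LDHA-deficient mice leaves 1, assumed to vary like the other mice. Hashtags by ratio and clustering at resolution 0.4 also leave 1.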
